A study of Mus musculus with 4 samples.

Results

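The kinesin superfamily of motor proteins was examined in RNA-seq libraries of the embryonic mouse telencephalon. Members were the protein-coding genes of the count table whose symbol had the form Kif followed by digits and an optional letter, or Kifc followed by a digit. This rule found 40 of 27293 genes. They were divided by known role into 13 mitotic kinesins, 10 axonal transport kinesins, 7 dendritic and vesicle transport kinesins, 6 kinesins of the cilium and centriole and 4 others. Kif2b, Kif12 and Kif25 were not analysed here. The tissue was telencephalic tissue of C57BL/6 mice at E13, and each of 4 libraries was made from total RNA. 2 libraries carried the genotype label WT and 2 carried STINGf/f;Nestin-Cre, written cKO below, in which Cre under the Nestin promoter acts on floxed STING alleles in neural progenitors and their progeny. The comparison asks whether loss of the DNA-sensing adaptor STING in these cells goes with a change in the RNA of the motors used for division and for transport. The sample title of WT 2 holds an abbreviation that WT 1 lacks, and whether that embryo carried the Cre was not stated.

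Kinesins walk along microtubules by hydrolysing ATP through a conserved motor domain. In dividing progenitors of the ventricular zone, mitotic kinesins separate the spindle poles, move chromosomes and complete cytokinesis. In newborn neurons, other kinesins carry vesicles, mitochondria and cytoskeletal proteins from the cell body into axons and dendrites. The embryonic cortex at this stage holds both dividing progenitors and young neurons.

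The 4 libraries held between 17209654 and 18533391 counts, so that 3 counts corresponded to 0.162 to 0.174 counts per 1000000 (CPM, scaled here with TMM factors). Kinesin genes took 0.504% and 0.557% of the counts in WT 1 and WT 2, and 0.553% and 0.511% in cKO 1 and cKO 2. The STING gene itself (Tmem173) was counted 20 and 19 times in the WT libraries and 18 and 22 times in the cKO libraries, so its gene-level count was not lower in the libraries labelled cKO, and a gene-level count does not show which exons were read. WT 1 stood apart in markers of tissue next to the cortex. The summed CPM of 8 choroid plexus markers found in the table was 67.9 in WT 1 and 13.6 to 16.5 in the other libraries, and that of 10 meningeal and mesenchymal markers was 306 in WT 1 and 46.8 to 83.6 elsewhere. WT 2 had 0 counts over 4 Y-linked genes, against 1848 to 3002 in the others. No source named separate litters or batches, so the p-values measure only the spread between these libraries.

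Promoters were read for the 31 members with an entry in the RefSeq set (GRCm38.p6, 250 bases before to 50 after the annotated start), and the letters of 3 motifs of cell cycle genes were located on both strands. The CHR element was searched as TTTGAA or TTCAAA, the CCAAT box as CCAAT or ATTGG, and the E2F site as TTTCCCGC or TTTGGCGC and their reverse complements. No motif contains another, though neighbours can share an end base. The CHR is known as the binding element of the MuvB complexes that restrict transcription to late cell cycle phases, and the CCAAT box binds NF-Y. The mitotic windows below come from members that hold CHR letters near the start, which not all mitotic members do. Of those shown, Kif15 and Kif20b had no CCAAT box. Each runs 5′ to 3′ on the strand of the gene from 80 bases before to 20 bases after the start, and capitals mark CHR and CCAAT matches.
Kif11, chr19:37376302-37376401, plus strand: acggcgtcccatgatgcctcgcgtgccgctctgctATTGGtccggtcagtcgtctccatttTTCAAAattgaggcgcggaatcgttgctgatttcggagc
Kif22, chr7:127042401-127042500, minus strand: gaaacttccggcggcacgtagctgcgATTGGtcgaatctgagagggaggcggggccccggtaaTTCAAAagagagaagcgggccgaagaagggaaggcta
Kif23, chr9:61946780-61946879, minus strand: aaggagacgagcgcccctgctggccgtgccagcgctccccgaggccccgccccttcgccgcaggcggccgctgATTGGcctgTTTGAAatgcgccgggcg
Kif18b, chr11:102925105-102925204, minus strand: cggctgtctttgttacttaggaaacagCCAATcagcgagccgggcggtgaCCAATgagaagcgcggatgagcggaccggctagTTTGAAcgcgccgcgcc
Kif15, chr9:122951001-122951100, plus strand: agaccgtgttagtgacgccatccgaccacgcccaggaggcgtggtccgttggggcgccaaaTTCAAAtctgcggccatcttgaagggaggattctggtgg
Kif20b, chr19:34922278-34922377, plus strand: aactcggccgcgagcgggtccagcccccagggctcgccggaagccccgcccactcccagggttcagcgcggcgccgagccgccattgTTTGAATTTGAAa
The next windows are from axonal transport members without CHR letters and are shown for contrast.
Kif3a, chr11:53567289-53567388, plus strand: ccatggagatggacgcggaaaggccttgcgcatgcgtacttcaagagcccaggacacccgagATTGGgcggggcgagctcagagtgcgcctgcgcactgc
Kif5c, chr2:49619206-49619305, plus strand: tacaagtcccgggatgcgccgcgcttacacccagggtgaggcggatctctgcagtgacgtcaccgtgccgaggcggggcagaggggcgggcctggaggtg

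CHR letters were present in the promoters of 11 of 12 mitotic kinesins read, all but Kif18a, and in 20.2% of 27025 genes with a promoter. They were present in 1 of 7 axonal transport kinesins (Kif1a, at 1 of its 2 starts), 0 of 4 dendritic and vesicle transport kinesins, 1 of 5 cilium and centriole kinesins (Kif27) and 1 of 3 others (Kif26b). Within 30 bases of the start, a window chosen after the positions were seen, 9 of 12 mitotic kinesins held the CHR letters, against 3.66% of all genes. So did 1 of 3 kinesins of the group of others, Kif26b, at -9. Kif11 held them at -19, Kif15 at -19 and Kif22 at -17, counted from the first base of the transcript as 1, whereas Kif23 held them at 3 and Kif18b at 4. In Kif20b the match lay in a row at 8 and 14. A CCAAT box was found in 8 of 12 mitotic, 3 of 7 axonal transport, 0 of 4 dendritic and vesicle transport, 3 of 5 cilium and centriole and 1 of 3 other kinesins, and in 41.1% of genes. The 2 motifs occurred together in 8 of 12 mitotic kinesins, in Kif27 and Kif26b among the others, and in 7.97% of genes. E2F letters were found in Kif15 and Kif18a, 2 of 12 mitotic kinesins, and in 1.80% of genes. These matches describe letters and not binding. Kif20a, Kif5a, Kif5b, Kif13b, Kif19a, Kif21b, Kif28, Kifc2 and Kifc3 had no promoter entry.

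**Figure D1:**
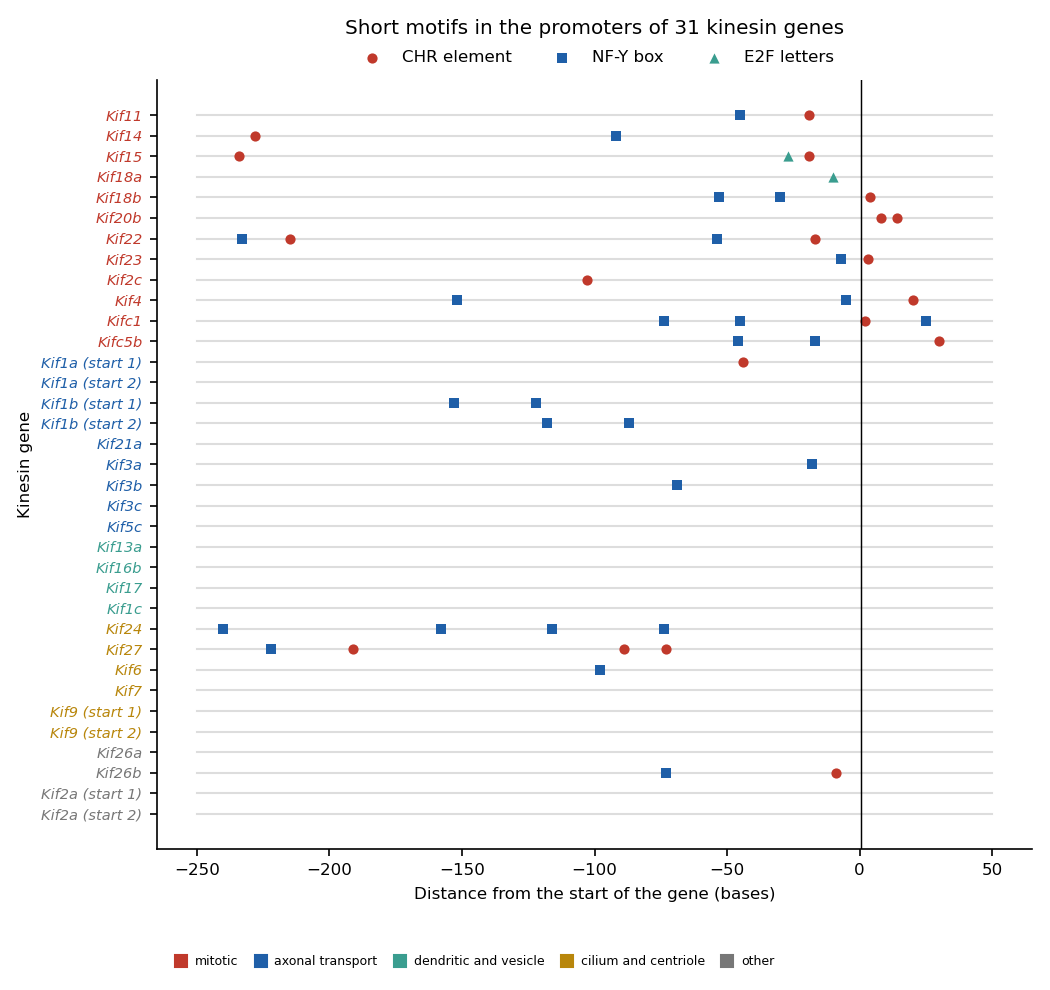
Position of 3 short motifs in the promoters of 31 kinesin genes, in bases from the annotated start (vertical line), with a line for each promoter and gene names coloured by role. The NF-Y box is the CCAAT box. CHR marks lie within 30 bases of the start in 9 of 12 mitotic kinesins and in 0 of 7 axonal transport kinesins. Kif26b, 1 of 3 in the group of others, also has a mark there. The 30-base window was chosen after the positions were seen.

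The most abundant kinesin RNAs in this tissue were those of neuronal transport motors. Levels between genes are compared per length, as mean CPM per kilobase of joined exons over the 4 libraries. Kif21b, a motor that also limits microtubule growth in neurons, was highest at 93.2 CPM per kilobase (range over libraries 80.0 to 101). Kif5c, a neuronal heavy chain of conventional kinesin, followed at 72.7 (61.2 to 80.9), and Kif1a, which carries synaptic vesicle precursors, at 65.1 (60.4 to 69.9). Kif21b was above Kif5c within each of the 4 libraries. Kif5c was above Kif1a in WT 1, WT 2 and cKO 1 and below it in cKO 2, so their order was not the same in every library. The lowest Kif1a library stood above the highest of Kif5a (38.7 to 44.0). Kif5a at 41.2 and Kif26a at 38.4 also changed order in cKO 2. Kif1b (33.1), Kif3a (30.9) and Kif21a (27.7) came next.

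Among mitotic members the highest per length were Kif22 (24.8 CPM per kilobase), Kif11 (21.6), Kifc1 (21.4) and Kif2c (18.8), and the lowest was Kif18a (2.13). In CPM, not divided by length, Kif21b alone made up 21.4% of all kinesin counts, and 8 of the 11 members with a mean above 100 CPM were axonal transport kinesins. At the other end, Kif17, a dendritic motor for NMDA receptor vesicles, and Kif6, Kif9, Kif19a and Kif27 of the ciliary list had means below 1 CPM per kilobase, as did Kif16b. Kif28 was counted 0 and 1 times in the WT libraries and 2 and 5 times in the cKO libraries, and it was the only member removed by the filter on low counts. Using the longest coding transcript as the length left 8 of the 10 highest members among the 10 highest and kept the order of Kif21b, Kif5c and Kif1a. It changed the order below them, since the mitotic Kif22 moved from 24.8 to 57.4 CPM per kilobase and from rank 9 to rank 4, above Kif1b, Kif5a and Kif26a. Bulk RNA cannot tell fewer cells of a type from less RNA per cell.

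**Figure D2:**
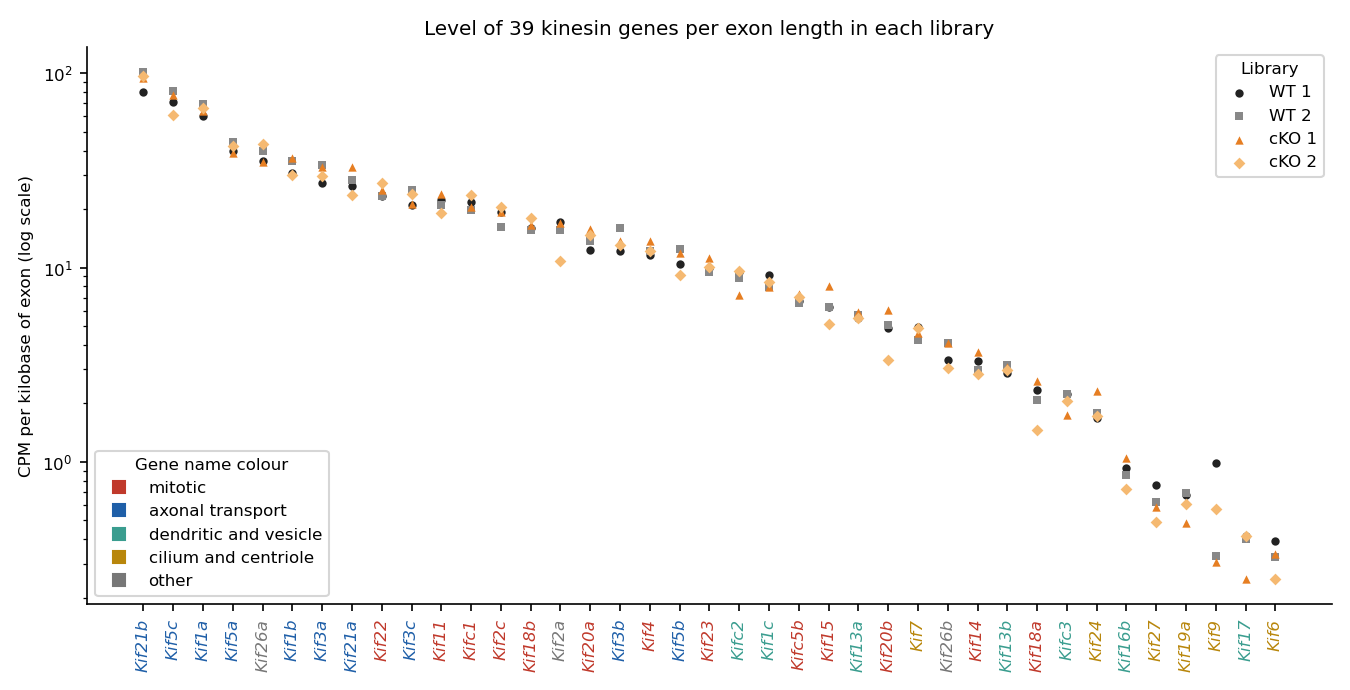
Level of 39 kinesin genes in each library, in CPM per kilobase of exon on a log scale, ordered by the mean and with gene names coloured by role; Kif28, at 0 in WT 1, is left out. Transport motors lead, from Kif21b at 80.0 to 101, and WT 1 stands apart for Kif9.

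No kinesin gene passed a test threshold between the libraries labelled cKO and WT. Of the 39 members tested by edgeR's quasi-likelihood test, 0 passed a fold change of 2 with an unadjusted p of at most 0.05, a rule that 0.811% of the 16145 genes tested passed. 0 members had an unadjusted p of at most 0.05 (1.23% of genes), and 0 passed an adjusted p under 0.05, as did 0 genes in all. DESeq2 likewise gave 0 members at an unadjusted p of 0.05, with 0.252 as the smallest. The smallest edgeR p of a member was 0.180, for Kif20a, with an adjusted p of 1.00. The standard error of a member's log2 fold change lay between 0.14 and 0.58, with a median of 0.18. For 34 members the whole 95% interval lay within a 2-fold change in either direction, and for 27 it lay within 1.5-fold, so that larger changes of these members fall outside the intervals. With 2 libraries a group, an exact permutation test of a single gene cannot go below p = 0.333.

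**Figure D3:**
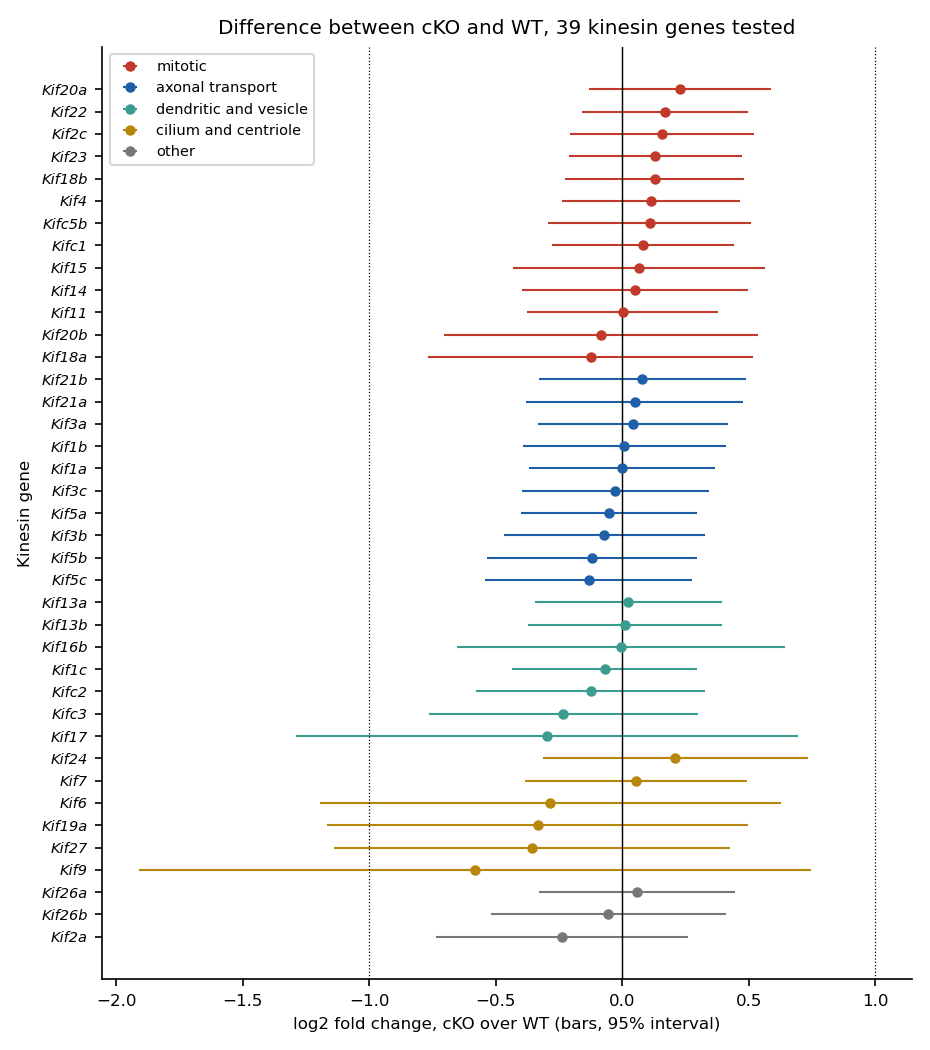
Fitted log2 fold change, cKO over WT, of the 39 kinesin genes tested, grouped by role. Bars are 95% intervals computed from edgeR's log2 fold change and F statistic. Dotted lines mark a 2-fold change. All intervals include 0. Mitotic members lie between -0.12 and 0.23, and the widest interval is that of Kif9.

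Mitotic kinesins leaned to slightly higher values in cKO without a single call. The log2 fold change was above 0 for 11 of 13, against 47.9% of all genes tested, with a median of 0.11 beside -0.01 over all genes. For 5 of 13, both cKO libraries exceeded both WT libraries, an arrangement found in 11.0% of all genes tested, and for 0 of 13 were both below. These 5 were Kif22, Kif23, Kif20a, Kif18b and Kifc5b. For another 5 of 13, Kif11, Kif14, Kif15, Kif18a and Kif20b, cKO 2 was the lowest library, an order not counted over all genes. The 13 genes come from the same libraries and are not independent replicates. The count of 11 rests on the library set, since it was 8 without cKO 1, 9 without WT 2 and 12 without cKO 2, and it was 10 with the replicate block. The median stayed above 0 in the fits that left out 1 library. Of 10 cortical progenitor markers, 7 also lay above 0, with a median of 0.07, and their summed level was 2815 and 2682 CPM in WT and 2928 and 2930 in cKO. The part of these markers in the mitotic values was not tested.

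Among the motors that build the bipolar spindle, Kif11 (Eg5, which slides antiparallel microtubules apart; chr19:37376403-37421859) had 166 and 156 CPM in WT 1 and WT 2, and 179 and 143 in cKO 1 and cKO 2. The cKO libraries lay on either side of both WT libraries, and the log2 fold change was 0.0016 (SE 0.16, edgeR adjusted p = 1.00). Kif15, which shares spindle work with Kif11, had 69.2 and 68.7 CPM in WT and 88.1 and 56.3 in cKO. The WT libraries were close, and the cKO libraries again lay on either side of them. Without cKO 1, 4 of 39 members, Kif15, Kif18a, Kif20b and Kif2a, had an unadjusted edgeR p of at most 0.05 with cKO 2 lower than WT, as did 15.0% of all genes in that fit in either direction. Without cKO 2, Kif15 alone passed that p with cKO 1 higher than WT (2.67% of all genes).

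The chromokinesins push chromosome arms toward the spindle equator and organise the midzone. Kif22 (Kid; chr7:127027729-127042471) had 114 CPM in both WT 1 and WT 2, and 123 and 134 CPM in cKO 1 and cKO 2. Both cKO libraries were above both WT libraries, with group means of 114 ± 0.017 and 129 ± 7.4 CPM (SD, n = 2) and a log2 fold change of 0.17 (SE 0.14, edgeR unadjusted p = 0.268 and adjusted p = 1.00). Kif4 had 64.3, 67.0, 75.3 and 66.8 CPM in WT 1, WT 2, cKO 1 and cKO 2, where cKO 2 lay within the WT range. Of the longest coding transcript of Kif4, 16.2% is shared with other genes in stretches of 50 bases, mostly with the overlapping Pdzd11.

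The kinesin-13 and kinesin-8 motors shorten microtubule ends at kinetochores and poles. Kif2c (MCAK; chr4:117159639-117182639) had 84.7 and 70.5 CPM in WT and 83.8 and 89.1 in cKO, so the groups overlapped, with a log2 fold change of 0.16 (SE 0.16, edgeR adjusted p = 1.00). Kif18b had 56.8 and 55.9 CPM in WT and 58.8 and 64.4 in cKO, and Kif18a 23.1 and 20.6 in WT and 25.7 and 14.4 in cKO. Kif18b was thus higher in both cKO libraries, and Kif18a was highest in cKO 1 and lowest in cKO 2. The GC content of their transcripts was 55.2% for Kif18b and 38.3% for Kif18a. Its part in this contrast was not tested.

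In cytokinesis, Kif23 (MKLP1) is the motor of the centralspindlin complex and Kif20a (MKLP2) brings the chromosomal passenger complex to the midzone. Kif23 (chr9:61915905-61946774) had 78.6 and 74.8 CPM in WT and 88.7 and 79.3 in cKO, with a log2 fold change of 0.13 (SE 0.15). Kif20a had 53.2 and 59.7 CPM in WT and 68.5 and 63.9 in cKO. Both were higher in both cKO libraries, for Kif23 by less than 1 CPM between WT 1 and cKO 2. Kif20a had the largest positive log2 fold change of the members tested, 0.23 (SE 0.16, edgeR unadjusted p = 0.180). Of its longest coding transcript, 31.2% is shared with other genes, mostly the overlapping Cdc23. Kif14, a partner of citron kinase in abscission, had 34.3, 30.9, 38.0 and 29.4 CPM in WT 1, WT 2, cKO 1 and cKO 2. Kif20b, which acts in late cytokinesis of cortical progenitors, had 34.2 and 35.3 CPM in WT and 42.2 and 23.3 in cKO, so neither was separated by group. The minus-end motors Kifc1 and Kifc5b share 47.6% and 42.1% of their longest coding transcripts with other genes, mostly with each other, so their counts are uncertain. Kifc1 had 74.4, 67.5, 70.0 and 80.3 CPM and Kifc5b 24.9, 24.4, 27.0 and 26.0 CPM in WT 1, WT 2, cKO 1 and cKO 2.

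Axonal transport kinesins were split in direction. The log2 fold change was above 0 for 4 of 10 and below 0 for 6, with a median of -0.01 and a range of -0.13 to 0.08, and the groups were apart for 0 of 10 (21.8% of all genes). The direction rests on the WT libraries, since 1 of 10 lay above 0 without WT 1 (median -0.11) and 9 of 10 without WT 2 (median 0.12). The order of the libraries was shared instead within WT. All 10 were higher in WT 2 than in WT 1, with a median log2 ratio of 0.23, against -0.0018 over all genes tested. WT 2 was the highest of the 4 libraries for 8 of 10. How many of all genes hold these orders was not counted. The summed level of 12 cortical neuron markers had the same order in WT, 6485 CPM in WT 1 and 7611 in WT 2, and was 6959 and 6584 in cKO 1 and cKO 2. Its part in the kinesin values was not tested.

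Kif21b (chr1:136131389-136177998) had 975 and 1232 CPM in WT 1 and WT 2, and 1159 and 1174 in cKO 1 and cKO 2. The cKO libraries were close together and lay between the WT libraries, and the log2 fold change was 0.08 (SE 0.18, 95% interval -0.33 to 0.49, edgeR adjusted p = 1.00). Without WT 1 it was -0.08. Its relative Kif21a had 171 and 182 CPM in WT and 213 and 153 in cKO, the cKO libraries on either side of WT.

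The kinesin-3 motors Kif1a and Kif1b carry synaptic vesicle precursors and mitochondria. Kif1a (chr1:93015464-93101951) had 564 and 652 CPM in WT and 594 and 620 in cKO, again with cKO between the WT libraries, and a log2 fold change of -0.0022 (SE 0.16). Kif1b (chr4:149176319-149307693) had 539 and 625 CPM in WT and 642 and 527 in cKO, and a log2 fold change of 0.0077 (SE 0.17). Both differences were far smaller than the distance between the WT libraries, and the edgeR adjusted p was 1.00 for each.

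Conventional kinesin is built from the heavy chains Kif5a, Kif5b and Kif5c. Kif5c (chr2:49619298-49774778) had 508 and 578 CPM in WT 1 and WT 2, and 553 and 437 in cKO 1 and cKO 2. Only cKO 2 lay below the WT libraries, and the log2 fold change of -0.13 (SE 0.18, edgeR adjusted p = 1.00) became 0.04 without cKO 2. Kif5a had 278, 308, 270 and 295 CPM in WT 1, WT 2, cKO 1 and cKO 2, and Kif5b, the broadly expressed chain, had 83.2, 98.9, 94.6 and 73.2. The kinesin-2 motors, which serve axonal transport and the cilium, had values of the same spread. Kif3a had 97.7 and 120 CPM in WT and 119 and 106 in cKO, and Kif3b 68.9 and 90.0 in WT and 77.4 and 73.8 in cKO. Kif3c had 155 and 185 CPM in WT and 158 and 176 in cKO. Of its longest coding transcript, 43.4% is shared with other genes, mostly the overlapping 1110002L01Rik.

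Mitotic and axonal transport kinesins were then set against each other within each library. The mitotic list summed to 878 and 846 CPM in WT 1 and WT 2, and to 969 and 870 in cKO 1 and cKO 2. The axonal list summed to 3440 and 4071 CPM in WT and to 3880 and 3636 in cKO. The ratio of mitotic to axonal was therefore 0.255 and 0.208 for WT 1 and WT 2, against 0.250 and 0.239 for cKO 1 and cKO 2. Both cKO libraries lay between the WT libraries in these counts. On the log2 scale the cKO mean exceeded the WT mean by 0.09, less than the within-group SD of 0.15. The difference was -0.06 without WT 2 and 0.24 without WT 1, so its direction rests on WT 2. It was 0.12 with levels per length and 0.14 with counts corrected for GC content. With that correction the ratio was 0.247 and 0.207 for WT 1 and WT 2 and 0.237 and 0.261 for cKO 1 and cKO 2, so that cKO 2 lay above both WT libraries.

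**Figure D4:**
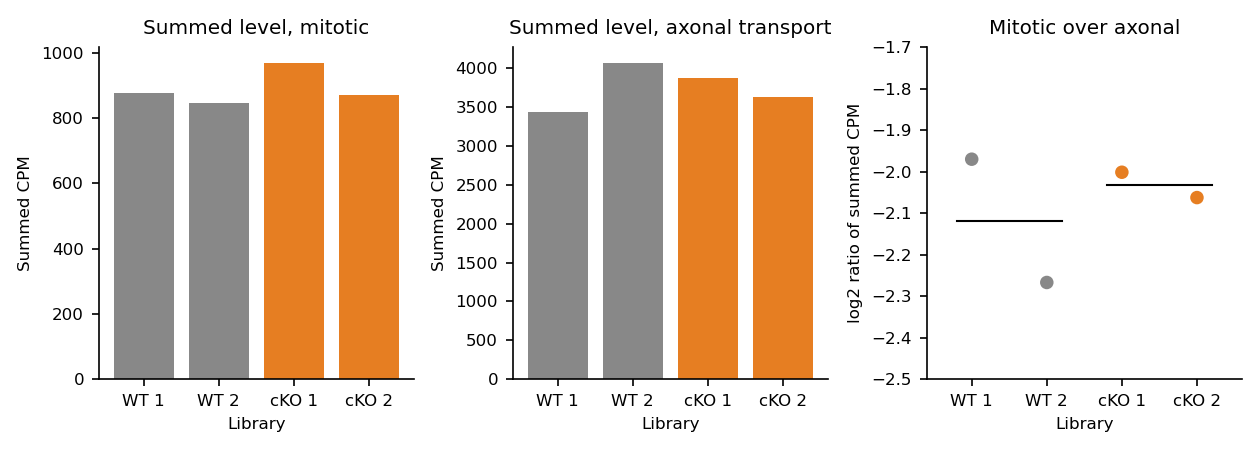
Summed CPM of 13 mitotic and 10 axonal transport kinesins in each library, and the log2 ratio of the sums with horizontal lines for the group means (2 libraries each; grey WT, orange cKO). The cKO ratios, 0.250 and 0.239, lie between those of WT 2 (0.208) and WT 1 (0.255); the log2 axis does not start at 0.

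Kinesins of dendrites and vesicles had a median log2 fold change of -0.07, with 2 of 7 above 0. Kif1c, a motor of Golgi and dense core vesicle traffic, had 67.0 and 58.0 CPM in WT and 58.0 and 61.1 in cKO (log2 fold change -0.07, SE 0.16), and Kif13a, which moves recycling endosomes, had 44.6 and 45.9 in WT and 47.8 and 44.3 in cKO (0.02, SE 0.16). Neither was separated by group. Kifc3 had 11.9 and 11.8 CPM in WT and 9.22 and 11.0 in cKO, lower in both cKO libraries, as in 10.8% of all genes. Of its longest coding transcript, 23.1% is shared with other genes. The other members were Kif13b at 37.3 to 41.1 CPM, Kifc2 at 28.4 to 37.8, Kif16b at 6.54 to 9.55 and Kif17 at 1.15 to 1.90 over the 4 libraries.

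The ciliary list was low and the least precise. Its median log2 fold change was -0.31, with 2 of 6 above 0. Kif7, the regulator of Hedgehog signalling at the cilium tip, was the highest, with 22.6 and 19.4 CPM in WT and 21.2 and 22.5 in cKO (log2 fold change 0.06, SE 0.19). Kif24, which restrains cilium formation at the mother centriole, had 13.6 and 14.4 CPM in WT and 18.5 and 13.8 in cKO (0.21, SE 0.23), and became -0.01 without cKO 1. In Kif24 only cKO 1 stood above the rest.

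Kif9, a motor of motile cilia, was counted 74 times in WT 1 but 26 times in WT 2, with 24 and 44 for cKO 1 and cKO 2. WT 1 stood above the others. Kif9 was the 1 member at least 1.5-fold lower in WT 2 than in WT 1 (5.44% of all genes), and the sign of the difference followed the WT library used. The log2 fold change was -0.58 (SE 0.58, edgeR adjusted p = 1.00) with all libraries, -1.16 without WT 2 (edgeR unadjusted p = 0.0309, a p of at most 0.05 being reached by 3.83% of all genes in that fit) and 0.41 without WT 1. The summed CPM of 11 multiciliated cell markers found in the table was 56.3 in WT 1 and 15.9 in WT 2, and 17.3 and 24.3 in cKO 1 and cKO 2, the same high library, and its part in the Kif9 value was not tested. Kif27 was counted 69 and 60 times among WT libraries and 56 and 46 times among cKO libraries. Kif19a, which sets the length of motile cilia, was counted 48 and 52 times among WT libraries and 36 and 44 times among cKO libraries. Both were lower in both cKO libraries, as in 10.8% of all genes. Their log2 fold changes were -0.36 (SE 0.34) and -0.33 (SE 0.36), with edgeR adjusted p = 1.00. Kif6 had 27 to 41 counts.

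Of the remaining kinesins, Kif26a, an atypical kinesin without ATPase activity, was abundant at 245 and 276 CPM in WT and 243 and 299 in cKO (log2 fold change 0.06, SE 0.17). Kif2a, a microtubule depolymerase that trims axon branches and also acts at the spindle pole, had 109 and 100 CPM in WT and 108 and 69.1 in cKO. Only cKO 2 was low for Kif2a. Its log2 fold change was -0.24 (SE 0.22), -0.60 without cKO 1 and 0.06 without cKO 2. With GC-corrected offsets on all libraries it was -0.0039. Of the longest coding transcript of Kif2a, 23.0% is shared with other genes, mostly Dimt1. Kif26b had 48.9, 60.3, 60.4 and 44.8 CPM in WT 1, WT 2, cKO 1 and cKO 2.

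Genes that work with the motors showed the same absence of calls by edgeR. Of 20 partners of mitotic kinesins, such as passenger and midzone proteins, 0 had an unadjusted p of at most 0.05 (1.23% of all genes). The log2 fold change was above 0 for 15 (47.9% of all genes), with a median of 0.11. In both cKO libraries 7 were higher (11.0% of all genes). Aurka, the kinase that activates spindle assembly, had 57.3 and 63.5 CPM in WT and 68.6 and 73.7 in cKO (log2 fold change 0.24, SE 0.15). Birc5, a subunit of the chromosomal passenger complex, had 71.2 and 66.9 CPM in WT and 72.1 and 85.1 in cKO (0.19, SE 0.16). The summed level of these partners was 2609 and 2603 CPM in WT and 2947 and 2629 in cKO, highest in cKO 1. That library was also the highest for 9 of 13 mitotic kinesins, an order not counted over all genes.

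Of 20 transport partners, 10 lay above 0 and 10 below, and 0 had an unadjusted p of at most 0.05. The light chain gene Klc2 had 116 and 128 CPM in WT and 120 and 155 in cKO, and Klc3 was counted 18 and 14 times among WT libraries and 10 and 13 times among cKO libraries. Dynein and dynactin form the motor of the opposite direction. Of their 18 genes, 14 lay above 0 (47.9% of all genes tested), with a median of 0.08. An unadjusted edgeR p of at most 0.05 was reached by 0 of them (1.23% of all genes). Dynlrb1 had 150 and 161 CPM in WT and 157 and 216 in cKO, and Dynll1 had 258 and 284 in WT and 264 and 362 in cKO, each highest in cKO 2.

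The spread within a label exceeded the difference between labels for most members. For 31 of 39, the log2 ratio between the libraries of at least 1 label was larger in size than the fitted log2 fold change. This sets ratios of single libraries against a difference of group means, and the share over all genes was not counted. The median sizes over all genes were 0.16 (WT), 0.26 (cKO) and 0.13 (fitted change). Over the kinesin genes tested they were 0.15, 0.22 and 0.08, the same ordering. Between the cKO libraries the log2 ratio followed the GC content of the transcript. Across the 39 members the ratio of cKO 2 to cKO 1 had a Pearson r of 0.81 and a Spearman rho of 0.82 with GC content, a description over genes that share libraries and are not independent replicates. The same r was 0.63 over 16120 genes. Between WT 2 and WT 1 it was 0.06 over the members and 0.15 over the 16120 genes.

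All 6 members under 45% GC, Kif18a, Kif2a, Kif20b, Kif5b, Kif11 and Kif15, were lower in cKO 2 than in cKO 1, with a median log2 ratio of -0.64. Of the 22 members between 45% and 55%, 16 were lower in cKO 2, with a median of -0.16. Of the 11 members at 55% or more, 1 was lower, with a median of 0.20. Over all genes tested, 3297 of 3850, 4007 of 8405 and 498 of 3865 were lower in the same classes. Their medians were -0.41, 0.02 and 0.27. Kif18a, Kif20b, Kif2a and Kif15, 4 of 39 members, were at least 1.5-fold lower in cKO 2 than in cKO 1 (9.69% of all genes tested), and 0 were 1.5-fold higher (3.82%). Between the WT libraries 0 members were 1.5-fold higher in WT 2 (1.5%). The fitted difference between cKO and WT had an r of 0.00084 with GC content over the 39 members, but 0.20 over the 16120 genes. The median log2 fold change of all genes was -0.13 under 45% GC and 0.05 at 55% or more, and that of the members in these classes was -0.10 and 0.06. With GC-corrected offsets, 13 of 13 mitotic kinesins lay above 0 with a median of 0.13, and 0 members had an unadjusted edgeR p of at most 0.05, the smallest being 0.0722. The part of GC content in the mitotic values was not tested beyond this correction.

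**Figure D5:**
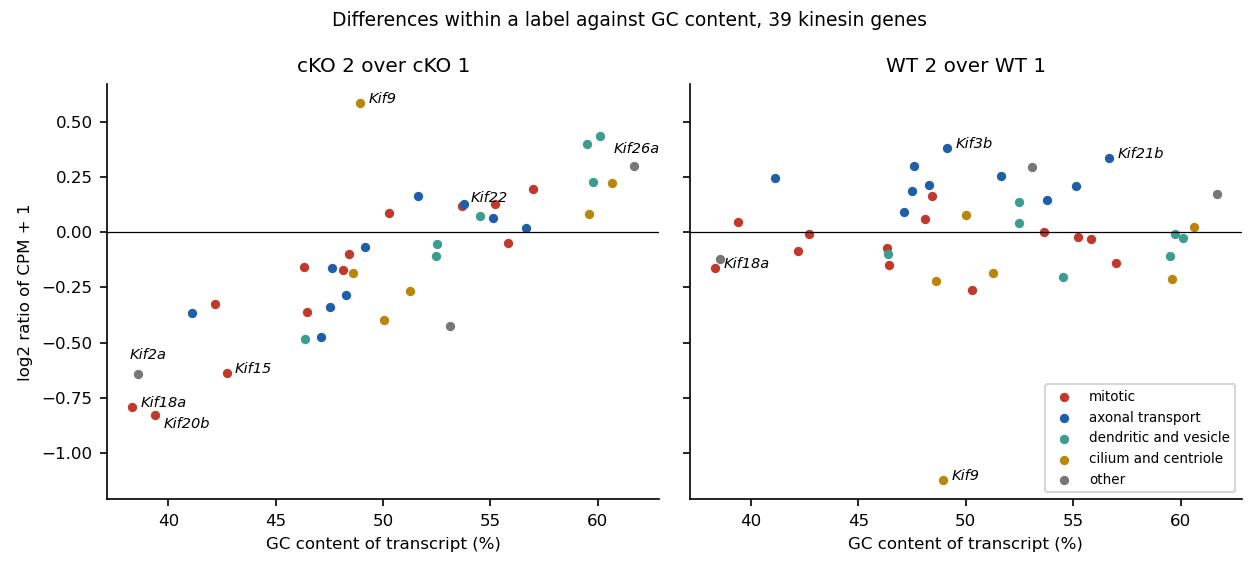
Log2 ratio of CPM + 1 between libraries of the same label against the GC content of the transcript in percent, for 39 kinesin genes coloured by role. In cKO 2 over cKO 1 the ratio rises with GC content (Pearson r 0.81), and in WT 2 over WT 1 it does not follow it (0.06), with all 10 axonal members above 0 and Kif9 lowest.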

How the data were processed

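Total RNA of telencephalic tissue was sequenced in 2 WT and 2 cKO libraries. The authors deposited raw read counts per gene for all 4 libraries, and a second table of cKO 1 and WT 1 whose counts were identical for all 21342 genes in both. The submitters' processing notes name Bowtie2 2.2.3, TopHat2 2.0.12, HTSeq 0.6.0 and the build mm9, with no role given. However, 97.3% of 27232 genes found in GENCODE M21 had a start or end within 1 base of that annotation, so positions were read as GRCm38. The strand setting of counting is not given in the sources used here, so reads of overlapping genes cannot be told apart. 11 rows named no gene (0.0403% of 27304) and were left out. Columns of the authors' own comparisons, such as fold changes and p-values, were not used.

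Counts were fitted in R 4.3.3 with edgeR 4.0.16 (TMM factors, filterByExpr, glmQLFit and glmQLFTest) on all genes, with Benjamini-Hochberg adjustment over the 16145 genes tested, and with DESeq2 1.42.0 as an alternative. Fold 2 with p of at most 0.05 follows the study's methods. Ratios within a label used log2(CPM + 1). Exon length, GC content and shared 50-base stretches came from GENCODE M21, and promoters from RefSeq. The fits were tested on simulated data with planted changes larger than those of the members in the fit reported. That check does not cover changes as small as theirs. Alternatives were other size factors, filters on low counts, a replicate block, leaving out each library, and, chosen after seeing the data, a GC correction and another transcript length. With 2 libraries a group the spread is poorly known, and nothing states whether libraries came from separate litters.

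The members and lists were chosen with earlier results of these data known. Per-library values were given for the 4 mitotic and 4 axonal members with the highest mean CPM, the 2 highest of each other list, the 3 largest log2 fold changes in each direction, and members whose groups did not overlap with a fold of at least 1.25. Values of other members are given so that each is accounted for. Of each partner list, the 2 genes with the smallest p were named.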

Additional observations from a re-analysis of the deposited data

How the results depend on the processing

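The 0 kinesin genes past each threshold remained 0 under other size factors (RLE, upper quartile), filters of at least 1 count in any or 10 in every library, DESeq2, the replicate block and the GC correction. Leaving out 1 library gave 0 to 1 members past fold 2 and p 0.05 (Kif9, without WT 2) and 0 past the adjusted threshold. The mitotic median ranged from 0.051 to 0.21, highest without cKO 2, the axonal median from -0.11 to 0.12, highest without WT 2, and the mitotic to axonal difference from -0.06 to 0.24.

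Differences near 0 changed sign with the processing. Larger ones also did so when 1 library was left out, such as Kif9 (-0.58 with all libraries) and Kif2a (-0.24). Kif1a was 0.0019 with RLE factors, 0.0015 with upper-quartile factors, 0.0026 with at least 1 count, 0.00076 with at least 10 counts and 0.0019 in DESeq2. Across fits that leave out 1 library, the log2 fold change ranged from -0.17 to 0.17 for Kif11, -0.080 to 0.27 for Kif21b, -0.10 to 0.12 for Kif1a, -0.14 to 0.16 for Kif1b, -0.31 to 0.041 for Kif5c, -0.16 to 0.037 for Kif1c, -0.029 to 0.092 for Kif13a, -0.040 to 0.17 for Kif7, -0.015 to 0.42 for Kif24, -0.087 to 0.20 for Kif26a, -0.60 to 0.062 for Kif2a and -1.16 to 0.41 for Kif9. The cause was not tested.

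Both groups use the numbers 1 and 2, which with 2 pairs does not establish a pairing of libraries. Deviations of same-numbered libraries correlated at 0.139 over 16145 genes. The replicate block called 0 members, gave 10 of 13 mitotic members above 0, and turned Kif11 to -0.0069 and Kif1a to 0.0012. Over all genes, fold 2 with p 0.05 called 131 in the fit reported, 208 with the block, 405 with at least 1 count, 72 with at least 10 counts and 65 in DESeq2, and 104, 476, 531 and 121 without WT 1, WT 2, cKO 1 and cKO 2. A member with few counts, such as Kif9, Kif17 or Kif6, could change by 2-fold without being called.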
